A study of Mus musculus with 43 samples.

Results

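The genes described here are Hba-a1 and Hba-a2 of the alpha globin cluster, Hbb-bt and Hbb-bs of the beta cluster, and Alas2, an enzyme of red cell precursors. These 4 adult globin genes and Alas2 make 5 genes, and each has 1 entry of its own among the 42349 entries of the expression table. The entries were found by their gene symbols. The set of genes was chosen by measured values, namely the FPKM difference between the KO_AL and WT_AL groups and the proportions between the genes and between the tissues. Those values are therefore given as a description, and the comparison of KO_DR with WT_DR mice, which shares no library with KO_AL or WT_AL, is the one that was tested. The proportions were judged over all 16 groups, KO_DR and WT_DR among them. The tested comparison is therefore not fully independent of the choice of the genes.

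Haemoglobin, the oxygen carrier of red blood cells, is a tetramer of a pair of alpha chains and a pair of beta chains, each holding a haem group. Hba-a1 and Hba-a2 encode the adult alpha chain, and Hbb-bs and Hbb-bt the adult beta chain. Alas2 encodes the erythroid form of 5-aminolevulinate synthase, the enzyme of the first step of haem synthesis in red cell precursors, while other cells rely on its relative Alas1. Mature mammalian red cells have no nucleus, but reticulocytes, the youngest red cells in the circulation, still carry globin and Alas2 mRNA. Globin mRNA in a solid organ can come from the blood left in it, or from red cell precursors where these are present.

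RNA came from the brain, liver, skeletal muscle and inguinal fat (white adipose tissue, WAT) of female mice aged 15 months. The WT mice were Irs1+/+ and the KO mice Irs1-/-, a loss of insulin receptor substrate 1 in the whole body. The AL groups fed ad libitum and the DR groups ate 30% less for 12 months, so that each tissue has the groups WT_AL, WT_DR, KO_AL and KO_DR, all on the same chow. The labels list 43 libraries, with 2 for WT_AL in each tissue, 2 for WT_DR in WAT and 3 for every other group. The mice were culled by cervical dislocation, and no removal of blood from the organs is described in the methods. The deposited values are FPKM (fragments relative to transcript length and to the mapped fragments of the library), 1 for each gene in each group, with a 95% interval from the authors. No value per mouse or count was used here, so depth is unknown and the spread between mice is seen only through the authors' intervals. In bulk tissue, fewer cells of a type and less RNA per cell cannot be told apart.

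The coding sequences within each pair of copies are nearly identical, and the last part of each is shown for that reason. The coding sequences of Hba-a1 and Hba-a2 are each 429 bases long and 99.8% identical, with the single substitution C381T, counted from the A of the start codon with the base of Hba-a1 first. The change lies at position 3 of codon 127 and leaves the amino acid as it is. In the beta pair, of 444 bases each and again 99.8% identical, the single substitution is C417T with the base of Hbb-bs first, at position 3 of codon 139 and likewise silent. The stretches around both sites are printed 5′ to 3′ from the GENCODE transcripts on GRCm38, bases 351 to 411 for the alpha pair and 387 to 444 for the beta pair, with the differing base in capitals.
Hba-a1: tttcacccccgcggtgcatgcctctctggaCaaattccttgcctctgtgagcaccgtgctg
Hba-a2: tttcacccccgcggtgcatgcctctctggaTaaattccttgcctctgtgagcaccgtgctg
Hbb-bs: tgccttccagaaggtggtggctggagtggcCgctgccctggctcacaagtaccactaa
Hbb-bt: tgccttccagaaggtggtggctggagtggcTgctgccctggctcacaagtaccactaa

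Over the whole annotated transcripts, 66.7% of the 54-base windows of Hba-a1 also occur in Hba-a2, and 86.0% of those of Hba-a2 occur in Hba-a1. A window of 54 bases is the shortest read the authors kept. For the beta pair the shares are 65.6% of the Hbb-bs windows and 58% of the Hbb-bt windows. Cuffdiff was run with its correction for reads with several matches, so how the reads were split within a pair is uncertain, and sums over each pair are given beside the single genes.

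All 4 globin genes have 3 exons and 2 introns. In GRCm38, Hba-a1 lies on chromosome 11 from 32283511 to 32284465 and Hba-a2 from 32296489 to 32297298, both on the plus strand. On chromosome 7, Hbb-bt lies from 103812524 to 103813996 and Hbb-bs from 103826534 to 103828096, both on the minus strand. Alas2 is annotated on the plus strand of chromosome X from 150547375 to 150570638, with 11 exons in the transcript Alas2-201. The Alas2 entry of the table is wider, from 150519519 to 150643878. It takes in the whole of the annotated genes Apex2, on the minus strand, and Pfkfb1, on the plus strand like Alas2. Whether reads were counted by strand is not stated, so the Alas2 value is uncertain in that respect. Apex2 had its own FPKM of 1.89 to 9.62 over the 16 groups and Pfkfb1 of 0.104 to 53.6. With the mean of each tissue removed from log2(FPKM + 0.1), their correlations with Alas2 over the 16 group values were 0.67 and -0.19.

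The sequences upstream of the genes hold short motifs long known from globin promoters, and 1 promoter of each kind is shown for that reason. The 250 bases before each start were searched on both strands. One motif was GATAA, the core that GATA factors bind. Another was CACCC, the core that factors of the Klf1 family bind. The others were the CCAAT box and ATATAA, a form of the TATA box. None of these motifs contains another, and where they overlap each was counted. All 4 globin genes held each of the 4 motifs. Of 32851 RefSeq promoters of that length, 22.6% held GATAA, 33.8% CCAAT, 52.0% CACCC and 9.10% ATATAA, and 3.45% held the first 3 together. Alas2 held 1 match to GATAA and 3 to CACCC, with no match to the other motifs in this window. Hba-a1 and Hba-a2 share an unbroken run of 247 bases in this window. The stretches below are from the RefSeq table for GRCm38.p6, read 5′ to 3′ on the strand of the gene, with motif matches in capitals (TTATC is GATAA on the other strand). They are chr7:103827929-103828011 for Hbb-bs (minus strand), chr11:32296372-32296488 for Hba-a2 (plus strand) and chrX:150547297-150547374 for Alas2 (plus strand). The Hbb-bs stretch lies inside the interval given above for that gene, because the RefSeq start used here is downstream of the start of that interval.
Hbb-bs: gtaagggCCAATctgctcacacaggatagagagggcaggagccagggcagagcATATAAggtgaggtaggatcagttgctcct
Hba-a2: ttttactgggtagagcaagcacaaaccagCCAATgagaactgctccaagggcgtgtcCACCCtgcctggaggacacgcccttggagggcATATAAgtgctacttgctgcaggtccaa
Alas2: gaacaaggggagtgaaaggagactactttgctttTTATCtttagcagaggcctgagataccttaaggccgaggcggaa

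A few facts of the whole series bear on the values below. Irs1 went against the genotype labels: its FPKM was lower in the KO group in 1 of 8 comparisons with WT mice on the same diet (WAT under DR), with 2.58 to 6.31 in the KO and 1.62 to 6.56 in the WT groups. Directions are therefore those of the labelled groups. The 10 liver marker genes summed to 2716 FPKM in WT_DR skeletal muscle and to between 21.4 and 118 in the other muscle groups. The 10 skeletal muscle markers summed to between 412 and 1138 in WAT and the 10 adipose markers to between 701 and 3072 in skeletal muscle. In its own tissue each marker list reached far higher sums, such as 64709 to 149418 for liver genes in liver.

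In skeletal muscle the alpha genes were lowest in the WT groups and much higher in both KO groups. Hba-a1 had an FPKM of 226 in WT_AL, 407 in WT_DR, 3856 in the group labelled KO_AL and 8347 in the group labelled KO_DR. The values of Hba-a2 were 213, 438, 4083 and 7395 in the same order. The authors' intervals were wide in the KO groups, from 0 to 9769 for Hba-a1 in KO_AL and from 0 to 23382 in KO_DR, against 78.3 to 373 in WT_AL and 228 to 587 in WT_DR. The beta genes followed the same order with narrower steps. Hbb-bs had an FPKM of 394, 516, 2631 and 3247, and Hbb-bt of 113, 188, 963 and 1221, in WT_AL, WT_DR, KO_AL and KO_DR. For Hbb-bt the interval in KO_AL (322 to 1604) lay above those of WT_AL (43.8 to 183) and WT_DR (108 to 269). Alas2 was at 2.98 in WT_AL and 3.41 in WT_DR, and at 49.1 in KO_AL and 74.1 in KO_DR. Of all 16 groups, WT_AL muscle had the lowest globin sum and KO_DR muscle the one next to the highest.

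Liver showed a plainer split by genotype label, with both WT groups low and both KO groups high. Hba-a1 had an FPKM of 866 in WT_AL, 1148 in WT_DR, 4865 in KO_AL and 4058 in KO_DR. Hba-a2 stood at 990, 1106, 5393 and 4497. The pair of KO groups differed little from each other beside their intervals, which for Hba-a1 ran from 574 to 9155 and from 681 to 7434. Hbb-bs had 585, 891, 2325 and 2447, and Hbb-bt 224, 303, 921 and 979. The Alas2 values were 14.1 and 21.0 in the WT groups and 67.0 and 66.0 in the KO groups.

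In brain both KO groups again exceeded both WT groups, but KO_AL stood well above KO_DR. The FPKM of Hba-a1 was 295 in WT_AL, 264 in WT_DR, 4085 in KO_AL and 1179 in KO_DR, and that of Hba-a2 was 296, 299, 4260 and 1216. The intervals of both alpha genes in KO_AL began at 0 and reached 9456 for Hba-a1 and 10448 for Hba-a2. The beta genes differed less between the WT and the KO groups. Hbb-bs had 316, 306, 1061 and 768, and Hbb-bt 122, 98.3, 471 and 298. Alas2 was at 3.42, 4.03, 30.4 and 14.0.

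WAT had another order, in which KO_AL was the lowest group for every one of the 5 genes and KO_DR the highest. Hba-a1 had an FPKM of 2434 in WT_AL, 4408 in WT_DR, 1339 in KO_AL and 8023 in KO_DR, and Hba-a2 of 2212, 4939, 1389 and 7193. The KO_DR value carried the widest relative error of all, with an SD of 188% of the FPKM for Hba-a1 and an interval from 0 to 38165. Hbb-bs had 1570, 2089, 1154 and 4140, and Hbb-bt 623, 780, 397 and 1597. Alas2 followed with 23.1, 52.0, 17.6 and 77.2. WT mice had higher values in WAT than in the other tissues for all 5 genes on both diets.

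**Figure D1:**
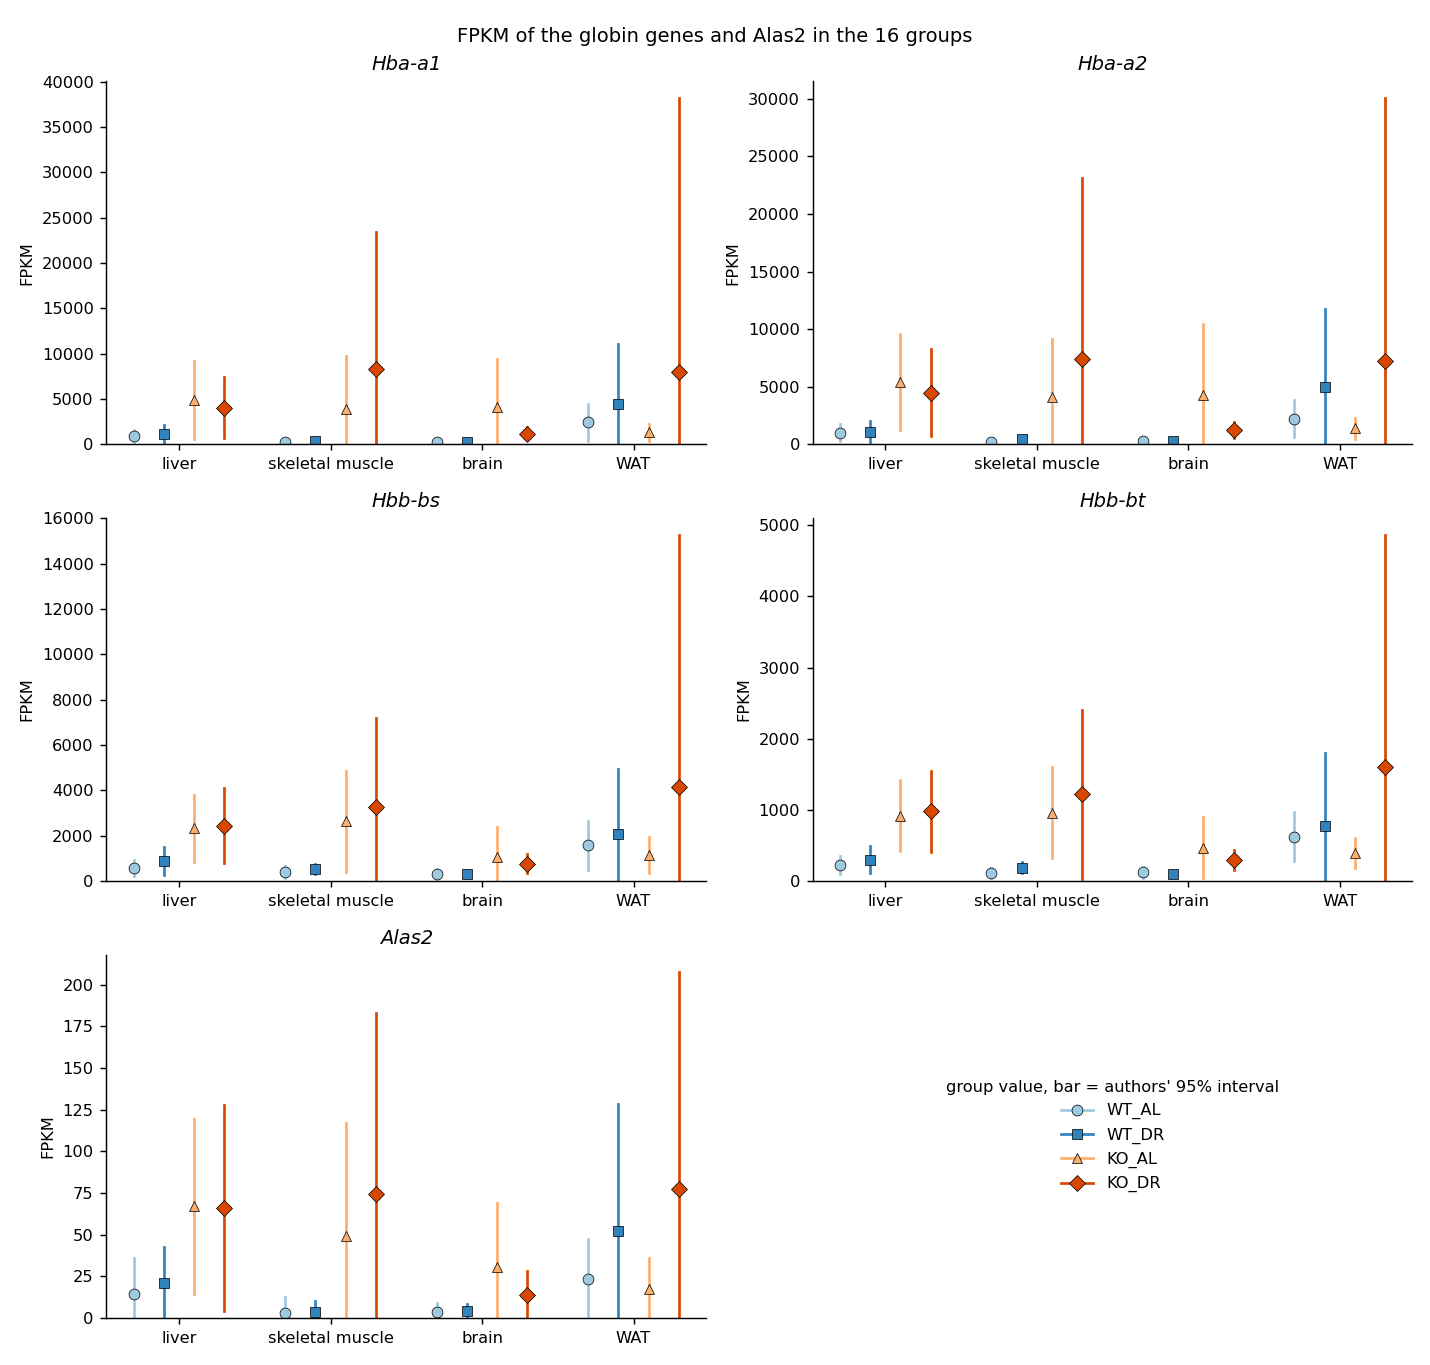
FPKM of the 5 genes in the 16 groups on linear axes that start at 0, with points at the authors' group values and bars at their 95% intervals. In liver, skeletal muscle and brain both KO groups sit above both WT groups, while in WAT KO_AL is lowest and KO_DR highest.

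Ordered over all 16 groups, each gene spanned a wide range. The highest value was 37.0 times the lowest for Hba-a1, 34.6 times for Hba-a2, 13.6 times for Hbb-bs, 16.3 times for Hbb-bt and 25.9 times for Alas2. For none of the 5 genes did any of the 15 neighbouring pairs in this order have intervals that lay apart, so no step from 1 group to the next exceeded the authors' error. The interval reached down to 0 in 13 of 16 groups for Alas2, in 5 for each alpha gene, in 4 for Hbb-bs and in 2 for Hbb-bt. Hbb-bt was thus the globin gene with the tightest values relative to its level. The sum of the 4 globin genes went from 947 FPKM in WT_AL skeletal muscle to 20953 in KO_DR WAT, with a median of 5559 over the 16 groups. As a share of all FPKM in the group, this is 0.0608% at the lowest and 2.38% at the highest.

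The genes moved closely together across the groups. On log2 FPKM without a pseudocount, the Pearson correlation between any pair of the 5 genes over the 16 group values lay between 0.953 (Hba-a2 with Hbb-bs) and 0.998 (Hba-a1 with Hba-a2). These points share libraries and normalisation, and the pairs of copies share reads. Alas2, which has no near-identical copy in this set, reached 0.978 with Hba-a1 and 0.954 with Hbb-bs.

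Proportions between the genes were less constant than their common course. The ratio of the summed alpha genes to the summed beta genes, per transcript length, ran from 0.866 in WT_AL skeletal muscle (SD 0.310 from the authors' intervals) to 5.45 in KO_AL brain (SD 3.63), with a median of 2.23. In skeletal muscle it was 0.866 in WT_AL, 1.20 in WT_DR, 2.21 in KO_AL and 3.52 in KO_DR. Brain gave 1.35, 1.39, 5.45 and 2.25 in the same order, and liver 2.29, 1.89, 3.16 and 2.50. In WAT the ratio was 2.12, 3.26, 1.76 and 2.65. Groups with more globin tended to have more alpha relative to beta RNA. With the single genes Hba-a1 and Hbb-bs in place of the sums, the ratio ran from 0.573 to 3.85, between the same groups. Over the 16 groups the log2 ratio had a Pearson correlation of 0.83 with the log2 globin sum (Spearman 0.83), and of 0.92 with tissue means removed. The sum is itself made mostly of the alpha genes, which had a median share of 33.6% (Hba-a1) and 34.7% (Hba-a2), so these measures are not independent.

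Within each pair of copies the proportions were steadier. Hba-a1 was between 0.875 and 1.13 times Hba-a2, and Hbb-bs between 2.25 times Hbb-bt (KO_AL brain) and 3.47 times (WT_AL skeletal muscle). The beta ratio tended to be lower where globin was higher, with a correlation of -0.58 with the log2 globin sum. Alas2 per 1000 FPKM of globin lay between 2.20 in WT_DR skeletal muscle and 6.09 in WT_DR liver, a 2.76-fold range beside the 22.1-fold range of the globin sum. Liver had the higher values of Alas2 per globin (4.96 to 6.09), above all groups of the other tissues, whose values ended at 4.26. The authors' intervals for Alas2 in liver ran from 0 to 36.1 in WT_AL and 0 to 42.4 in WT_DR. In KO_AL they ran from 14.4 to 120 and in KO_DR from 3.93 to 128. No error was formed for Alas2 per globin, so a difference between tissues is not shown. The correlation of Alas2 per globin with the globin sum was 0.27.

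**Figure D2:**
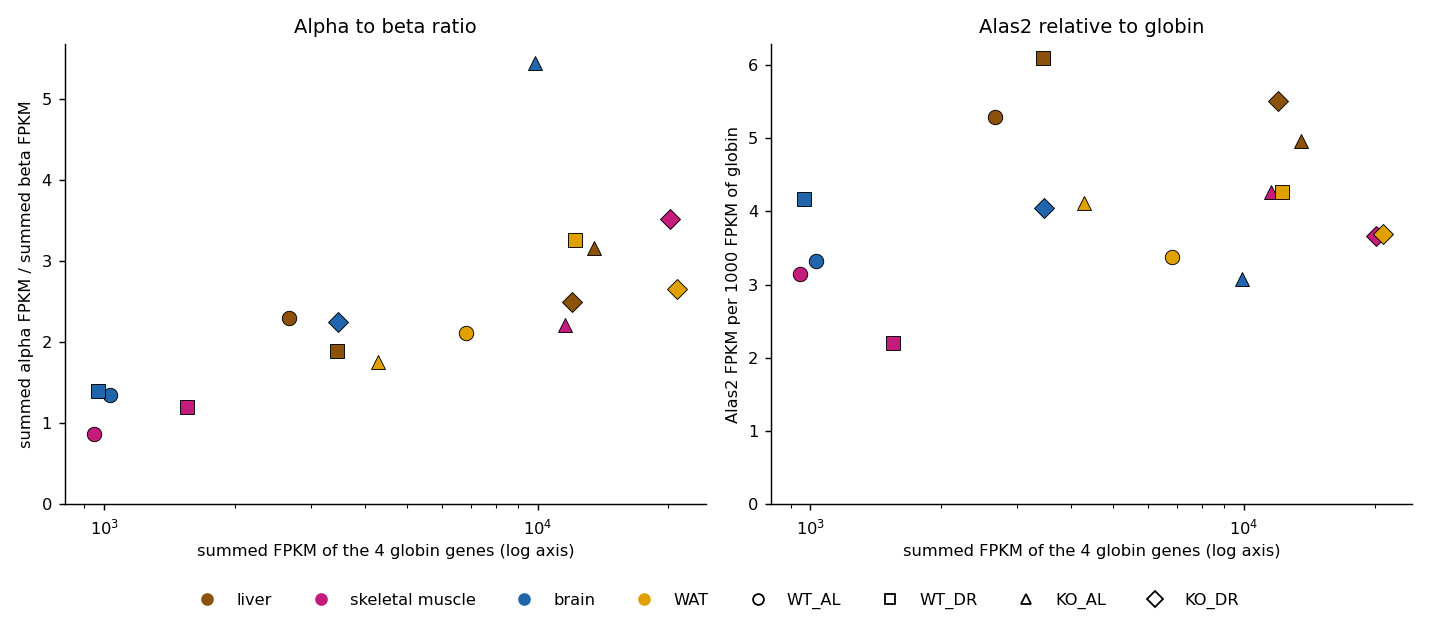
Ratio of summed alpha to summed beta FPKM (left) and Alas2 FPKM per 1000 FPKM of globin (right) against the globin sum on a log axis, 1 point per group, with colour for tissue and shape for group. The alpha to beta ratio climbs from 0.866 at the lowest globin sum towards 5.45 in KO_AL brain, while Alas2 per globin stays between 2.20 and 6.09 with the liver groups on top.

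Between KO_DR and WT_DR mice, the comparison asks whether the genotype label goes with globin RNA under DR. All 5 genes had a higher FPKM in KO_DR in all 4 tissues. The summed globin FPKM was 3.47 times that of WT_DR in liver, 13.0 times in skeletal muscle, 3.58 times in brain and 1.72 times in WAT. Differences are given below as log2 ratios of FPKM with a standard error (SE) from the authors' intervals. They were tested with a two-sided Wald test and Benjamini-Hochberg adjustment over all tested entries of the tissue at an FDR of 10%.

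In skeletal muscle Hbb-bt and Hba-a1 were called higher in KO_DR than in WT_DR mice. The choice of the genes also drew on proportions in these groups, so the calls are not independent of it. Hbb-bt had a log2 difference of 2.70 (SE 0.77) and Hba-a1 of 4.36 (SE 1.34), and both passed the FDR of 10% in the Wald test. The other genes had differences of similar size but missed the FDR, with 4.08 for Hba-a2 (SE 1.56), 2.65 for Hbb-bs (SE 0.93) and 4.44 for Alas2 (SE 1.75). All 5 genes had an unadjusted p under 0.05. With 2 of 5 genes called, the background was 0.884% of 14021 entries higher in KO_DR (2.23% in either direction). WT_DR muscle is the group with the liver markers in it, and the globin sum was 3448 in WT_DR liver and 1550 in WT_DR muscle. The adipose markers moved with this comparison too: their sum was 701 FPKM in WT_DR and 3072 in KO_DR muscle (1969 in WT_AL and 2334 in KO_AL), and all 10 were higher in KO_DR than in WT_DR, 7 of them called, with a median log2 difference of 2.32. The globin sum in WAT was 12217 in WT_DR and 20953 in KO_DR. The parts of liver and adipose RNA in the muscle values were not tested. Both calls were lost when a t distribution was used in place of the normal one, and 95% intervals lay apart for 0 of the 5 genes.

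Brain was the tissue with the most calls. Hba-a2 had a log2 difference between KO_DR and WT_DR mice of 2.03 (SE 0.49), Hba-a1 of 2.16 (SE 0.53) and Hbb-bt of 1.60 (SE 0.44). These 3 were called higher at the FDR of 10% in the Wald test, with the same limit from the choice of the genes. For these 3 genes the authors' intervals also lay apart, as for Hba-a1 with 150 to 379 in WT_DR and 480 to 1878 in KO_DR. Hbb-bs (1.33, SE 0.49) and Alas2 (1.80, SE 1.04) did not pass. The background was 0.989% of 15262 entries higher in KO_DR (1.16% in either direction). All 3 calls were lost with a t distribution, and also when each difference was centred on entries of like GC content, as given below.

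Liver had 0 of 5 genes called by the Wald test, 4 of them with an unadjusted p under 0.05, beside 0.184% of 13555 entries called higher (0.288% in either direction). The log2 differences were 1.82 for Hba-a1 (SE 0.88), 2.02 for Hba-a2 (SE 0.83), 1.46 for Hbb-bs (SE 0.70), 1.69 for Hbb-bt (SE 0.62) and 1.65 for Alas2 (SE 1.00). An alternative, smaller SE, in which each group's SD was divided by the root of how many libraries the group had, called the 4 globin genes here, all 5 genes in skeletal muscle and brain, and 0 in WAT.

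In WAT the differences were between 0.54 (Hba-a2, SE 2.50) and 1.03 (Hbb-bt, SE 1.75), and 0 of the 5 genes passed by either SE or had an unadjusted p under 0.05. Of all WAT entries, 0.216% were called higher and 0.283% in either direction. The 95% interval of the log2 difference was wide for each gene, from -4.86 to 6.59 for Hba-a1, from -2.40 to 4.47 for Hbb-bt and from -2.59 to 3.73 for Alas2.

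**Figure D3:**
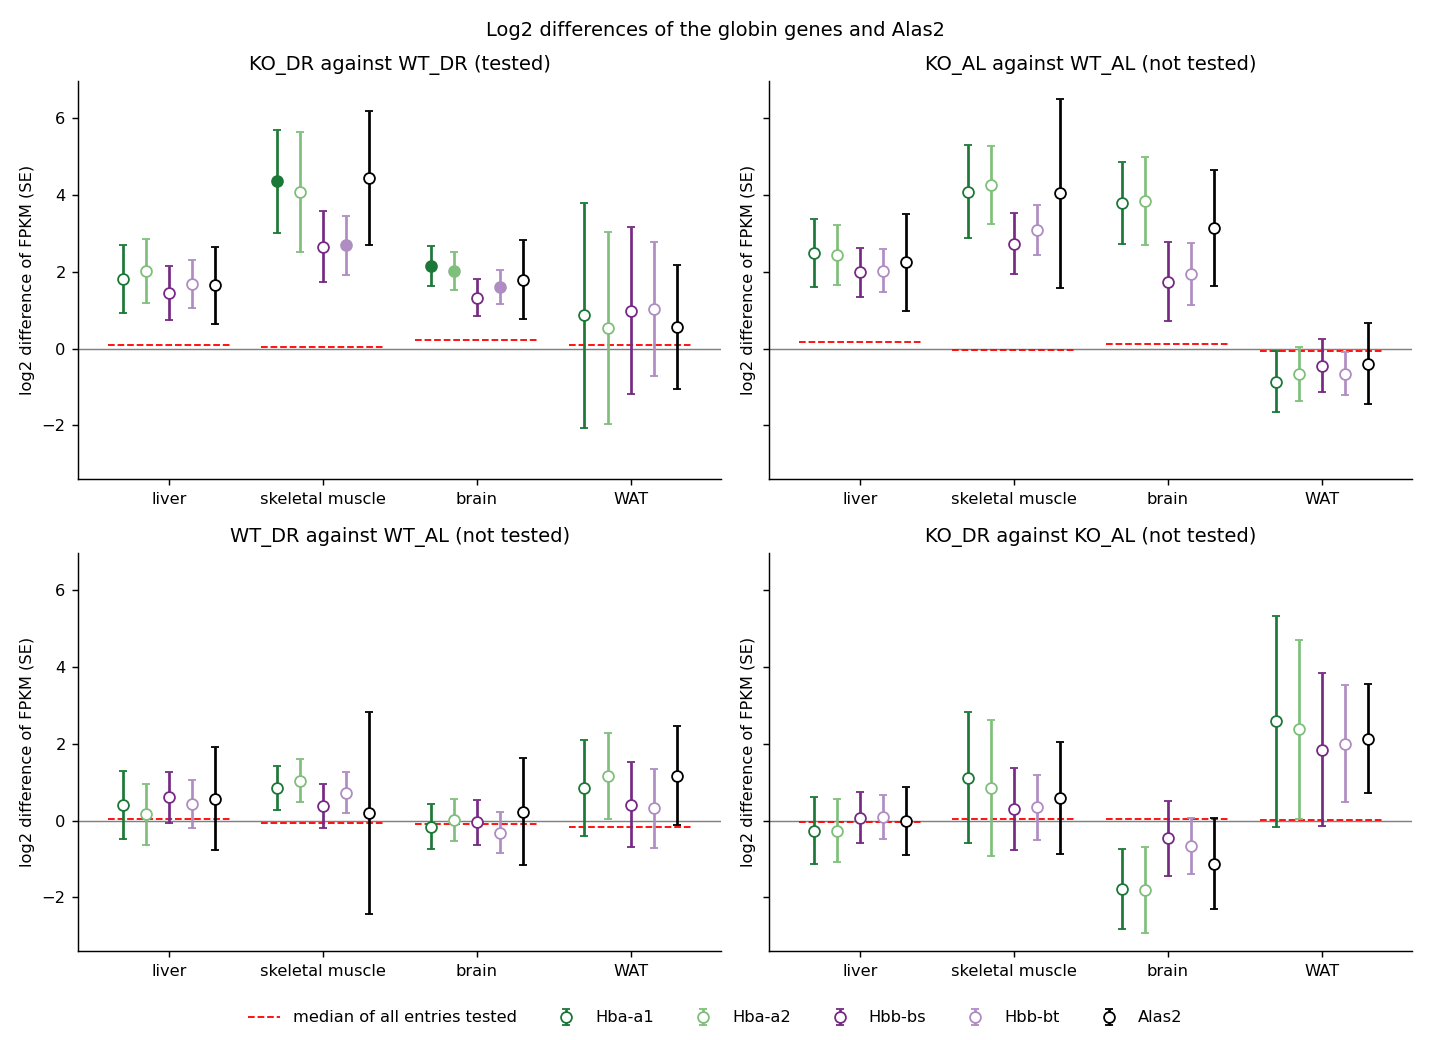
Log2 differences of the 5 genes in the 4 pairs of groups and 4 tissues, with bars of 1 SE to each side and red dashes at the median of all tested entries. Filled points, which appear for KO_DR against WT_DR alone because the other pairs were not tested, passed the FDR of 10% (2 genes in skeletal muscle and 3 in brain).

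Whether the difference between KO_DR and WT_DR mice was itself different between tissues was tested for 6 pairs of tissues. Of 30 tests on the 5 genes, 0 passed the FDR of 10% and 0 had an unadjusted p under 0.05, and with the smaller SE 0 passed as well. The difference that was largest beside its error was that of Alas2 in skeletal muscle against WAT, 3.87 on the log2 scale with an SE of 2.38. Over all entries, the shares called were 0.548% for liver less skeletal muscle, 0.078% for liver less brain, 0.0486% for liver less WAT, 0.337% for skeletal muscle less brain, 0.163% for skeletal muscle less WAT and 0.0549% for brain less WAT. The larger muscle values are thus not shown to differ from those of the other tissues.

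GC content moved with this comparison and is given beside it. When the tested entries of a tissue were divided into 5 classes of equal size by the GC content of their transcripts, the median log2 difference between KO_DR and WT_DR mice went up with GC in every tissue. In brain the medians from the lowest to the highest class were -0.14, 0.10, 0.25, 0.39 and 0.55. The alpha genes belong to the highest class and the beta genes to the middle one. Centred on the median of their own class, a step chosen after the values were seen, the brain differences were 1.60 for Hba-a1, 1.47 for Hba-a2 and 1.36 for Hbb-bt, and 0 of 5 genes passed the FDR of 10%. In skeletal muscle Hbb-bt still passed (2.65) and Hba-a1 did not (4.08). In every tissue the centred differences of all 5 genes stayed above 0. Its part in the levels of the genes was not tested beyond this.

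**Figure D4:**
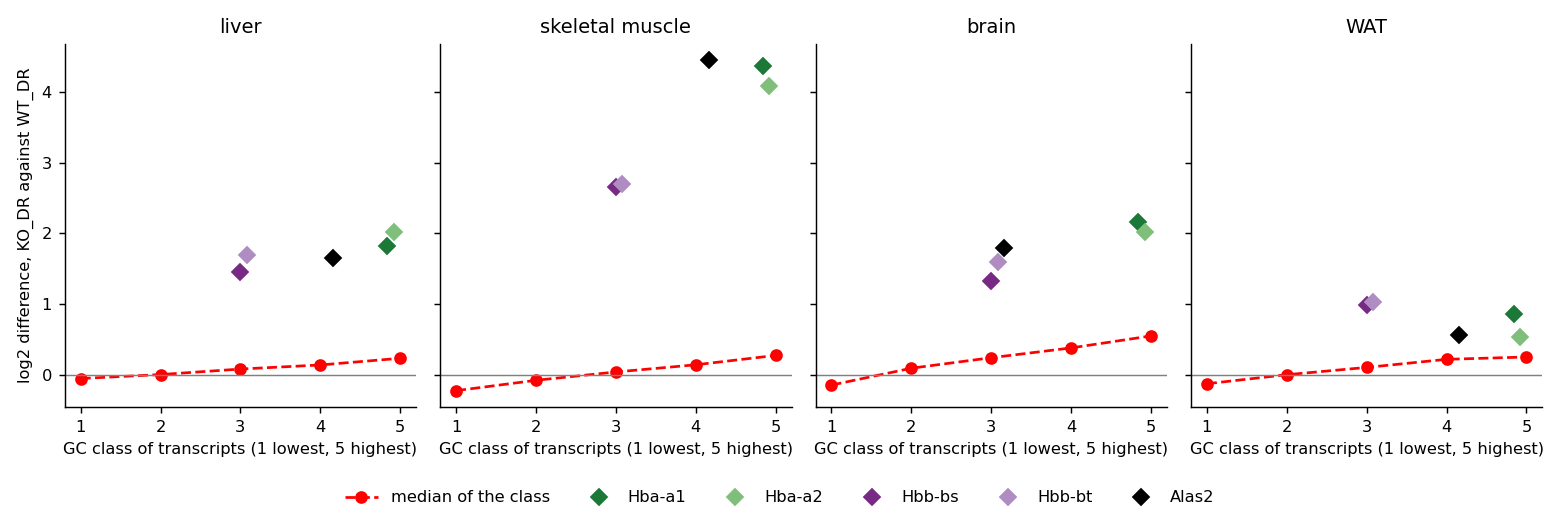
Log2 difference between KO_DR and WT_DR mice against the class of transcript GC content (1 lowest, 5 highest), with red points for the median of all tested entries in a class and diamonds for the 5 genes. The medians climb from left to right in each tissue, from -0.14 to 0.55 in brain, and all diamonds lie above them.

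Between KO_AL and WT_AL mice, the comparison in view when the genes were chosen, all 5 were higher in KO_AL in liver, skeletal muscle and brain and lower in WAT. Log2 differences were 1.99 to 2.49 in liver, 2.74 to 4.26 in skeletal muscle, 1.75 to 3.85 in brain and -0.86 to -0.39 in WAT. The globin sum of KO_AL was 5.06, 12.2, 9.60 and 0.626 times that of WT_AL in these tissues. The authors' intervals lay apart for Hbb-bt alone in liver and in skeletal muscle and for no gene in brain or WAT. Over all entries they lay apart for 0.588% in liver, 0.964% in skeletal muscle, 0.432% in brain and 1.75% in WAT.

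Diet within a genotype label gave smaller differences in most tissues, and because these pairs share a group with the choice of the genes they were not tested. WT_DR exceeded WT_AL by 0.16 to 0.61 on the log2 scale in liver, by 0.20 to 1.04 in skeletal muscle and by 0.32 to 1.17 in WAT. Brain differences between these groups were between -0.31 and 0.24. KO_DR and KO_AL were close in liver, with log2 differences between -0.26 and 0.09, and KO_DR was higher by 0.30 to 1.11 in skeletal muscle. The larger values were those of brain, where the globin sum of KO_DR was 0.350 times that of KO_AL, and of WAT, where it was 4.90 times. Every one of these differences in brain and WAT had a 95% interval that included 0. Centring on the median of all entries changed the sign of 2 of the 80 log2 differences, those of Hbb-bs between WT_DR and WT_AL in brain and of Alas2 between KO_DR and KO_AL in liver.

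Other red cell genes were examined as lists, drawn up with earlier results of these data known. None of the 5 genes is on them. Between KO_DR and WT_DR mice, the entries called in either direction were 0.288% of those tested in liver and 2.23% in skeletal muscle. In brain they were 1.16% and in WAT 0.283%, the background for each list below in this comparison. Haem synthesis, in which Alas2 acts first, had 12 listed genes, all tested in every tissue. Of these, 0 passed the FDR of 10% (Wald test) between KO_DR and WT_DR mice in any tissue, with 5 unadjusted p values under 0.05 in 48 tests, 4 of them in brain. Their median log2 difference was 0.35 in liver, 0.14 in skeletal muscle, 0.52 in brain and -0.08 in WAT, beside 0.09, 0.04, 0.23 and 0.09 over all entries. The 3 most abundant were Slc25a39, a mitochondrial carrier, Alas1, the housekeeping synthase, and Glrx5, a glutaredoxin of iron-sulphur cluster assembly. Alas1 was at 348, 342, 548 and 746 FPKM in liver of WT_AL, WT_DR, KO_AL and KO_DR mice. Slc25a39 was at 593, 651, 862 and 865 there. Glrx5 was at 37.9, 67.9, 112 and 141 in skeletal muscle and at 104, 41.1, 122 and 100.05 in brain. Its brain difference between KO_DR and WT_DR was 1.28 (SE 0.42), which did not pass the FDR.

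The list of red cell transcription and maturation had 1 call in 63 tests of KO_DR against WT_DR over the 4 tissues, with 3 unadjusted p values under 0.05. The call was in skeletal muscle, where 14 genes of the list were tested and 2.23% of all entries were called in either direction. Of the abundant members, Prdx2, a peroxiredoxin, lay between 97.8 and 151 over the muscle groups, and Bpgm, which makes the bisphosphoglycerate that lowers the oxygen affinity of haemoglobin, between 81.2 and 123. Car2, a carbonic anhydrase, was at 2.04, 2.26, 18.4 and 13.1 in WAT. The medians of the list between KO_DR and WT_DR were 0.56 in liver, 0.34 in skeletal muscle, 0.38 in brain and 0.39 in WAT.

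Red cell membrane and cytoskeleton genes had 0 calls in 37 tests of the same comparison by the Wald test, with 5 unadjusted p values under 0.05, and medians of 0.44, 0.07, 0.60 and 0.62. The most abundant, Aqp1, Ank1 and Epb41, are also expressed by cells of the tissues. Ank1 was between 241 and 415 in skeletal muscle and at most 0.436 in liver, and Aqp1 between 183 and 255 in WAT. The smaller SE called 2 genes of these 3 lists together in liver, 8 in skeletal muscle and 12 in brain, against 0, 1 and 0 with the SE used here. For WT_DR against WT_AL and KO_DR against KO_AL the 3 lists had 0 calls in any tissue, with 4 and 8 unadjusted p values under 0.05.

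A few genes of nucleated red cell precursors took a course of their own in skeletal muscle, and they are named here after their values were seen. Slc4a1, the band 3 anion exchanger of the red cell membrane, had an FPKM of 13.3 in KO_AL muscle and 0.952 in KO_DR, 0.525 in WT_DR and 0 as listed in WT_AL. Kel, a blood group antigen, stood at 7.67 in KO_AL and 0.221 in KO_DR muscle. Hemgn, a nuclear protein of blood-forming cells, was at 5.12 in KO_AL and 0.0463 in KO_DR muscle. Klf1, the transcription factor of adult globin genes, was at 4.09 and 0.415 there, and between 4.17 and 7.33 in the 4 liver groups. KO_DR muscle, with the higher globin sum of the pair, was thus far lower for these genes. Between KO_DR and KO_AL muscle the log2 difference was -3.81 for Slc4a1 (SE 1.33) and -3.30 for Klf1 (SE 1.09), and neither passed the FDR of 10%.

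KO_AL muscle was the highest of all 16 groups for 6 of the 17 membrane genes and 3 of the 21 maturation genes that reached 1 FPKM somewhere, and for 0 of 12 in haem synthesis. Over all entries that reached 1 FPKM, it was the highest group for 574 of 20228, or 2.84%. The same group led for 10 of 14 neutrophil and 6 of 10 platelet genes, and for 0 of 8 B cell and 0 of 9 T and NK cell genes. These counts were made after the values were seen.

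The neutrophil list summed to 769 FPKM in KO_AL skeletal muscle, beside 9.48 in WT_AL, 28.9 in WT_DR and 40.7 in KO_DR, and to 220 in KO_AL liver. In skeletal muscle 5 neutrophil genes were lower in KO_DR than in KO_AL mice at an FDR of 10%, where 0.5% of all entries were called. Camp, an antimicrobial peptide, fell by 6.79 on the log2 scale (SE 1.23), Ngp, a granule protein, by 4.78 (SE 1.19), S100a9, a calcium-binding protein, by 4.40 (SE 0.80), and S100a8 and Lcn2 were the others. S100a8 was at 148 in KO_AL and 8.32 in KO_DR muscle, and Lcn2 at 87.5 and 7.35. Ltf, lactoferrin, was up-regulated in WAT between KO_DR (11.1) and WT_DR (0.0538), with a log2 difference of 7.68 (SE 2.01). It stood apart from its list there, since 2 of the 7 neutrophil genes tested in that comparison had a positive difference and the median was -0.19. Nor was the split particular to DR, as Ltf was at 14.6 in KO_AL WAT and 0.0129 in WT_AL WAT. Mmp9 was the other abundant member. In the platelet list, Gp5, a platelet glycoprotein, fell in the muscle of KO_DR relative to KO_AL mice, by 4.37 on the log2 scale (SE 1.08). Its abundant members were Pf4, Itga2b and an entry that joins Gp1bb with Sept5.

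B cell genes ran the other way in skeletal muscle, with a list sum of 43.9 in WT_AL, 6.79 in WT_DR, 7.53 in KO_AL and 17.2 in KO_DR. Ms4a1 (CD20) and Cd79a, of the B cell receptor, fell in WT_DR relative to WT_AL muscle by 3.61 (SE 1.00) and 3.34 (SE 0.86) on the log2 scale, the 2 calls of that list. The background of that comparison was 1.4% of entries in skeletal muscle, beside 0.236% in liver, 0.224% in brain and 0.57% in WAT. Cd79b, Pax5 and Fcmr were the other abundant B cell genes. The T and NK cell list, led by Cd2, Cd3g and Lck, had 0 calls in any of these comparisons (Wald test, 0 unadjusted p values under 0.05). The globin sum was 11533 FPKM in KO_AL and 20209 in KO_DR muscle. Between the same groups the neutrophil list went from 769 to 40.7 and the platelet list from 83.9 to 24.2, while the B cell list went from 7.53 to 17.2 and the T and NK cell list from 6.32 to 11.4. What part blood cells and their precursors have in the globin values was not tested.

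**Figure D5:**
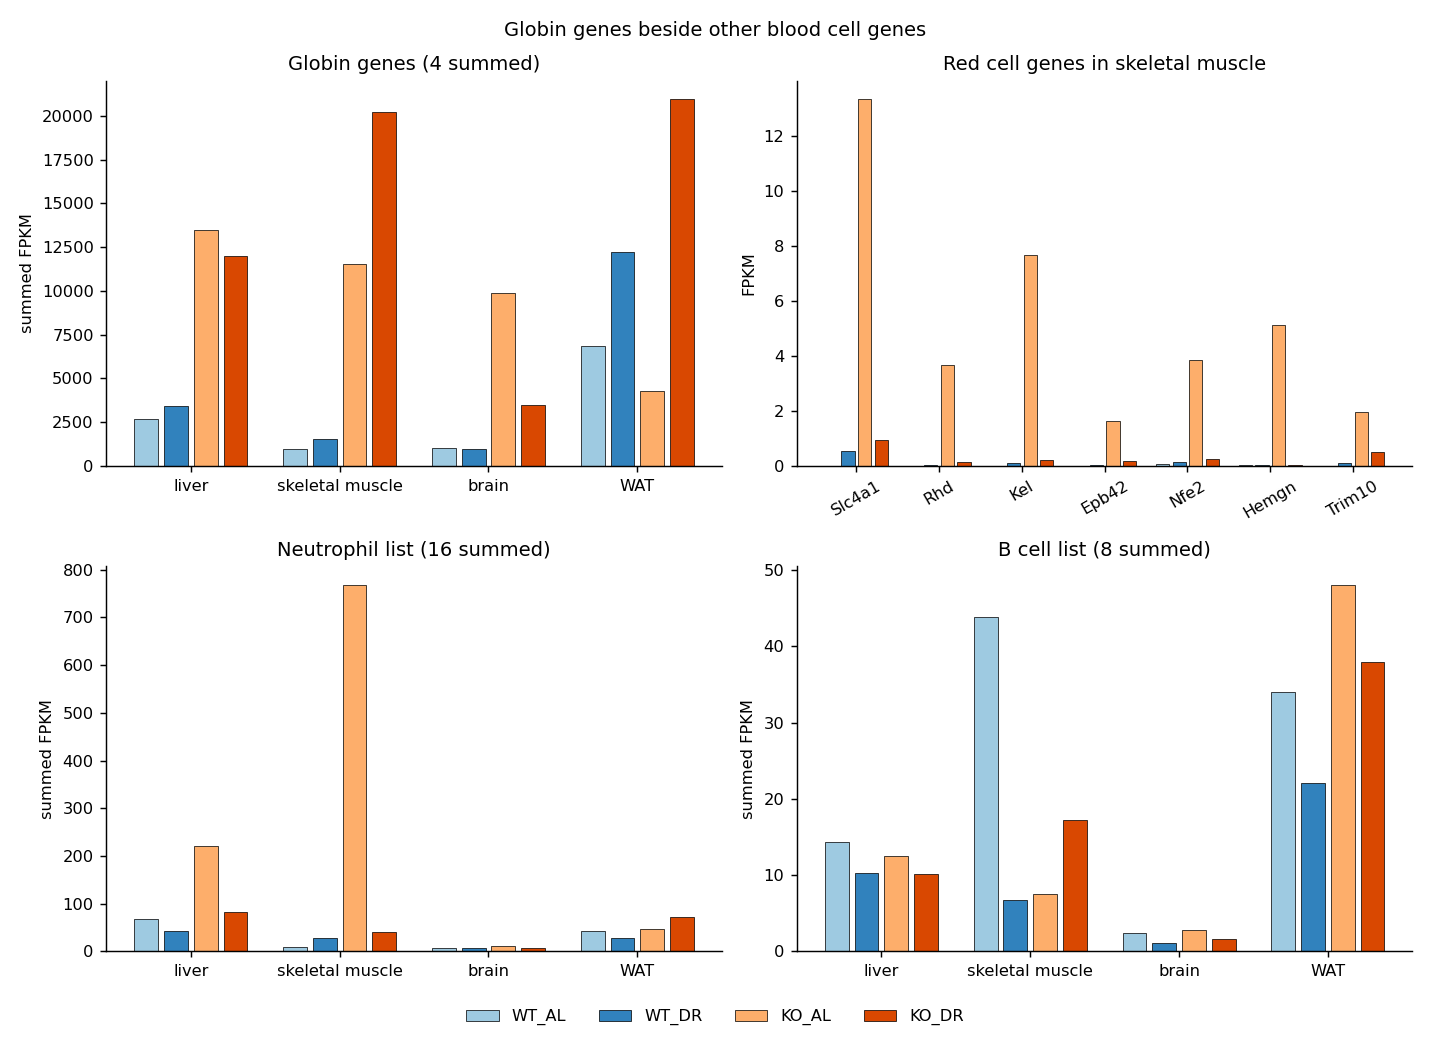
Bars of the summed globin FPKM in the 16 groups (top left), the FPKM of 7 red cell genes in skeletal muscle chosen after their values were seen (top right), and the summed FPKM of the neutrophil (bottom left) and B cell (bottom right) lists, without error bars since sums of the authors' intervals were not formed. Globin is highest in KO_DR skeletal muscle and WAT, while the red cell genes and the neutrophil list peak in KO_AL skeletal muscle.

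Embryonic and minor globins of the same gene clusters stayed near 0. Hba-x, Hbb-bh2 and Hbb-bh0 were listed at 0 in all 16 groups, and Hbb-y was above 0 in WT_AL brain alone (0.261). Hbq1a and Hbq1b, minor alpha-like genes, reached 1.35 and 0.964. Hbb-bh1 was above 0 in WT_DR liver alone. In this list 1 test was made between KO_DR and WT_DR, that of Hbq1a in brain, and it was not called. Of the globins of other tissues, myoglobin (Mb) was at 4153, 2214, 4378 and 2679 FPKM in skeletal muscle of WT_AL, WT_DR, KO_AL and KO_DR. Cytoglobin (Cygb) and neuroglobin (Ngb) were the others, and 0 calls were made in 7 tests between KO_DR and WT_DR (Wald test, 1 unadjusted p under 0.05). Of 5 genes that neighbour the alpha globin cluster, among them Nprl3, Snrnp25 and Mpg, 0 passed in 16 tests, with 0 unadjusted p values under 0.05. Nprl3 holds the main enhancers of the cluster in its introns, and its FPKM was 17.0, 17.6, 13.2 and 16.7 over the 4 muscle groups in which Hba-a1 spanned 226 to 8347.

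Of the genes that clear haemoglobin and handle iron, 0 were called higher in KO_DR than in WT_DR mice in 68 tests over the 4 tissues (Wald test, 9 unadjusted p values under 0.05 in either direction). The 3 lower calls were in skeletal muscle, where 2.23% of all entries were called in either direction. These calls were Hpx, which binds free haem and fell by 5.40 on the log2 scale, Hamp, the iron hormone hepcidin, which fell by 4.79, and Tfr2, which fell by 3.92. All 3 are liver genes, and WT_DR muscle is the group with the liver markers, where Hpx (77.3) and Hamp (160.1) were also called above WT_AL. In WAT Hpx was lower in KO_DR than in KO_AL by 3.88 (SE 1.10), where 0.707% of entries were called, beside 0.611% in liver and 0.365% in brain. The 10 liver markers were lower there too, with a sum of 741 FPKM in KO_AL WAT and 127 in KO_DR WAT. Of these 10, 0 had a positive difference and 3 were called lower, with a median log2 difference of -3.07. The part of liver RNA in the WAT values was not tested. Trf, Ftl1 and Fth1, the transferrin and ferritin genes, were the most abundant of the list. Haptoglobin (Hp), which binds free haemoglobin, was at 3830, 2381, 5015 and 4010 FPKM in liver.

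Entries with a course most like the globin genes were sought among 12778 entries with an FPKM of at least 0.1 in all groups. With tissue means removed, the 10 with the highest Pearson correlation over the 16 groups with the mean of the 4 globin genes had r between 0.913 and 0.942. Among them were Mrps30, Clptm1, Eva1b, Nudt22, Mrpl18, Ino80e, Gadd45gip1, Rpl41 and a joined entry of Gm20507, Pram1 and Zfp414. Mrps30 and Mrpl18 encode mitochondrial ribosomal proteins and Rpl41 a protein of the cytosolic ribosome, and none of the 10 is on a list above. The FPKM of Mrps30 was 13.4, 17.0, 24.6 and 30.6 in the muscle groups, in the order of the globin genes but over a far smaller range. Alas2 had r = 0.990, higher than any of these entries, and the median over all candidates was 0.0735. As Alas2 was chosen together with the globin genes by their proportions over these same groups, its place is a description and no test. Without the removal of tissue means, 0 of the 10 were shared.

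Of the red cell lists, the haem synthesis and maturation genes had higher median correlations with the globin course than the membrane list or all candidates together. Of 12 haem synthesis genes, 6 had r above 0.5 with a median of 0.42, and of 15 maturation genes among the candidates, 8 had, with a median of 0.52. Of all 12778 candidates 2238 had r above 0.5, and the median was 0.0735. Lists other than red cell genes had medians of 0.67 for white adipose (1 candidate), 0.43 for skeletal muscle (2) and 0.33 for neutrophil genes (4). Lower medians were those of liver (-0.27, 7 candidates) and B cell genes (-0.53, 2 candidates), among others. These correlations use the same groups by which the genes were chosen, so they are a description. Isg20, an exonuclease, reached 0.910, and Alad and Urod, enzymes of haem synthesis, 0.888 and 0.859. The membrane list had 8 genes among the candidates, with a median of 0.15. Alad was at 8.69, 14.2, 21.4 and 25.4 FPKM in skeletal muscle of WT_AL, WT_DR, KO_AL and KO_DR, and at 10.8, 6.26, 18.5 and 12.9 in brain.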

How the data were processed

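Single-end Ion Proton reads of poly-A RNA were trimmed (cutadapt 1.5, sickle), mapped to GRCm38 with BBmap and summarised per group with Cuffdiff 2.2.1 by the authors, who deposited FPKM values with 95% intervals, 1 per entry and group. The labels put 43 libraries in 16 groups. No column per library or count was used, so depth is unknown. Whether libraries came from separate mice rests on the labels, and errors are the authors' own.

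From the distance of the upper bound above the FPKM, divided by 2, an SD was taken. Log2 ratios without pseudocount were tested by a two-sided Wald test (delta-method SE, normal distribution) with Benjamini-Hochberg adjustment within a tissue over entries with status OK, an FPKM above 0 in both groups and at least 1 in one, at an FDR of 10%. With 2 or 3 libraries per group and no value per library, no exact test over libraries could be made, so calls are given without p-values. The test was tried on simulated data first. Python 3.11.15, numpy 2.4.6, pandas 2.3.3, scipy 1.17.1 and matplotlib 3.10.9 were used.

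The 5 genes and all lists were chosen with earlier results of these data known. KO_AL against WT_AL was described for every list and gene without a test. Named were the 5 genes, Irs1, up to 4 called and 3 abundant genes per list, and the 10 entries most alike in pattern, and names from outside this rule are marked. A few genes that this rule names are not reported here. Lists were matched by symbol or synonym to the deposited table. Sequences are from GENCODE M21 and RefSeq on GRCm38. Alternatives were an FDR of 5%, a smaller SE, a t distribution, pseudocounts, filters, centring, no joined entries and intervals apart. Centring on GC content and the smaller SE for tissue differences were added after the values were seen.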

Additional observations from a re-analysis of the deposited data

How the results depend on the processing

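The log2 differences kept their direction under all alternatives run on KO_DR against WT_DR, and the count of the 5 genes called did not: in skeletal muscle it was 2, and 1 with an FDR of 5% or centring on GC content, 5 with the smaller SE, and 0 with a t distribution or by intervals apart. In brain it was 3, and 5 with the smaller SE and 0 with a t distribution or GC centring, while in liver it was 0, and 4 with the smaller SE. Of the 3 red cell lists together, the genes called were 0 in liver, and 2 with the smaller SE or a pseudocount of 0.1 or 1 and 1 by intervals apart. In skeletal muscle they were 1, and 8 with the smaller SE and 0 with a t distribution. In brain they were 0, and 12 with the smaller SE and 1 with either pseudocount or by intervals apart. With Hba-a1 over Hbb-bs in place of the summed genes, the alpha to beta ratio was lower in every group, which follows from the proportions within the pairs. Hba-a1 was at most 1.13 times Hba-a2, while Hbb-bs was at least 2.25 times Hbb-bt. The ratio was lower by more than the SD of this single-gene ratio in 6 groups (by more than the SD of the ratio of sums in 3). In these 6 the sums gave 2.29 (liver WT_AL), 0.866 and 1.20 (skeletal muscle WT_AL and WT_DR), 1.39 and 2.25 (brain WT_DR and KO_DR) and 1.76 (WAT KO_AL). Centred on the median of all entries, Hbb-bt in brain no longer passed (1.37). Apart from the lower single-gene ratio, the cause of these changes was not tested, other than that the smaller SE and the t distribution narrow and widen the error by construction. The limits are those of 2 or 3 libraries per group and of values given per group. No paired analysis was possible because the columns hold group values without replicate numbers, and leaving out each replicate was not run for the same reason.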
